A study of Mus musculus with 34 samples.

Results

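Transcripts of 9 genes that break down amino acids were followed across 34 mouse livers. They are Tdo2, Kmo and Haao of the kynurenine pathway of tryptophan, Hpd, Hgd and Fah of tyrosine breakdown, Gldc of glycine cleavage, Sdsl of serine and threonine breakdown, and Aass of lysine breakdown. The genes were taken by symbol from a table of 35976 gene symbols, and all 9 symbols were found. The livers came from C57BL/6 mice homozygous for TetO-Cas9, a Cas9 gene under a tetracycline-responsive promoter, and for Rosa-rtTA, the transactivator that switches it on, placed at the Rosa locus. Controls included, each mouse carried a guide RNA delivered by AAV, an adeno-associated virus, and had eaten Western Diet for 3 months. The groups labelled knockout (KO) number 7 livers for Tbx3, 6 for Smyd2, and 5 each for Bcl6, Irs1 and Srebf1. The control group of 6 pooled 4 livers given sgGFP and 2 given sgLacZ, guides against sequences foreign to the mouse. The labels give neither age nor sex, nor the share of cells that were cut.

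The liver is the main site of breakdown for most amino acids, and it disposes of surplus nitrogen as urea. In the kynurenine pathway, Tdo2 encodes tryptophan 2,3-dioxygenase, which opens the indole ring and commits tryptophan to the pathway. Kmo encodes kynurenine monooxygenase and Haao encodes 3-hydroxyanthranilate dioxygenase, which together lead towards quinolinate and NAD. Tyrosine passes through Hpd (4-hydroxyphenylpyruvate dioxygenase), Hgd (homogentisate dioxygenase) and Fah (fumarylacetoacetate hydrolase), whose losses in humans cause forms of tyrosinaemia and alkaptonuria. Gldc is the glycine decarboxylase of the mitochondrial glycine cleavage system, Aass is the bifunctional enzyme that opens lysine breakdown, and Sdsl is a serine dehydratase-like protein.

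The genes lie on 8 chromosomes and all are annotated as protein-coding (GRCm38, GENCODE M21). Tdo2 lies at chr3:81957090-81976202 on the minus strand, Kmo at chr1:175620381-175662116 on the plus strand and Haao at chr17:83831156-83847963 on the minus strand. Hpd lies at chr5:123171807-123182727 (minus), Hgd at chr16:37580153-37632020 (plus) and Fah at chr7:84585159-84606722 (minus). Gldc lies at chr19:30098447-30175429, Aass at chr6:23072173-23132986 and Sdsl at chr5:120458186-120472810, each on the minus strand. Sdsl lies 3715 bases from its relative Sds. Kmo overlaps Fh1 on the other strand (mean 284 FPKM over the 34 livers) and Hpd overlaps Psmd9 on the other strand (mean 18.8 FPKM). Whether the counting used strand is not given in the sources used here, so reads in these overlaps may not be separated.

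The 250 bases before the RefSeq start (GRCm38.p6, gene strand, 5′ to 3′) are printed for 4 of the genes that passed against control. These are Tdo2, lower in Bcl6 KO, and Hpd, Gldc and Aass, each higher in at least 1 knockout. Kmo, higher in Irs1 KO, is not printed. Its 250 bases hold a C/EBP match at 189 to 182 bases before the start. RefSeq windows matched 8 of the 9 genes, all but Sdsl. Capitals mark the only match to the searched motifs in these 4 sequences, a C/EBP match in Aass at 22 to 15 bases before the start.
Tdo2 chr3:81975729-81975978 (minus): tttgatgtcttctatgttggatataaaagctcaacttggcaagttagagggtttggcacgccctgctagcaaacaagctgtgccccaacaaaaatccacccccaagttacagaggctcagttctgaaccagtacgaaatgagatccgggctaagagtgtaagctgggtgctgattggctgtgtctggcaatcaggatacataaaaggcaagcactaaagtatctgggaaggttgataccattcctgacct
Hpd chr5:123182724-123182973 (minus): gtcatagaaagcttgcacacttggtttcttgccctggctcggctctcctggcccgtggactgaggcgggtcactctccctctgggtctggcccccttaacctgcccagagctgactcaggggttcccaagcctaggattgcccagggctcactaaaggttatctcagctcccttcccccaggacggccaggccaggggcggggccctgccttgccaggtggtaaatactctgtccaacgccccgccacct
Gldc chr19:30175442-30175691 (minus): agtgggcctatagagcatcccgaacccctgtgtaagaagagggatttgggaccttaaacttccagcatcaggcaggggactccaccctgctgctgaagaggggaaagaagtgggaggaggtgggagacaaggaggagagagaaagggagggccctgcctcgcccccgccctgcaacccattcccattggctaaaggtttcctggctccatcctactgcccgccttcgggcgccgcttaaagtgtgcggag
Aass chr6:23132987-23133236 (minus): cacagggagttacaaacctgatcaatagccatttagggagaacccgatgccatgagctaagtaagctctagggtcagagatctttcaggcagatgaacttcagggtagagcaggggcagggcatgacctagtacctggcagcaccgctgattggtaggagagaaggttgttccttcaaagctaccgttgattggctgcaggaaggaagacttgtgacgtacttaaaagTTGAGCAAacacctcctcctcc
Exact matches on both strands were counted in windows of 250 bases before to 50 after the start. The C/EBP motif TTNCNNAA was found in 3 of the 8 windows (Kmo, Hgd and Aass), against 40.7% of all RefSeq windows. The glucocorticoid receptor half-site AGAACA was found in 2 (Kmo and Haao), against 19%, and the HNF1 half-site GTTAAT in 1 (Haao), against 7.1%. No window held the HNF4 core CAAAGTCC (1.42% of all windows), the STAT and Bcl6 motif TTCNNNGAA (8.3%), the T-box motif TCACACC (3.98%) or the sterol regulatory element TCACNCCAC (1.24%). A match is only a run of letters and does not show a bound site.

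Values are deposited FPKM, in which each gene's fragments are divided by transcript length and by the size of the library. How genes with several transcripts were handled is not given in the sources used. The values may be summed over transcripts, so levels of different genes may not be comparable. The low values imply 2110000 to 3130000 counted reads per library. A change is the difference of group means of log2(FPKM + 1) from limma, and "rose" or "fell" is used for an adjusted p under 0.05 over the 19295 genes tested. None of the 5 targeted mRNAs passed the test in its own knockout. Log2 changes were 0.05 for Bcl6, 0.33 for Irs1, -0.30 for Smyd2 and 0.45 for Tbx3 (limma adjusted p 0.165 to 0.98), and -1.06 for Srebf1 (0.0611), so these levels do not check the labels of the first 4. Srebf1 mRNA was at 1908 FPKM in the library labelled Srebf1 KO replicate 1 and at 499 to 632 in the other 4 libraries of that label, against 1095 to 2177 in the controls. That library thus lay within the control range and apart from the others of its label. Whether its liver was cut is not known from these values. Srebf1 KO results include it except where it is said to be left out. Between sgGFP and sgLacZ livers 2 genes passed (0.0104% of those tested) and 0 of the 9 genes (the smallest unadjusted p among them was 0.0438, for Fah).

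All 9 genes stood at 1 FPKM or more in every liver. Mean levels over the 34 livers, per length, were 4131 FPKM for Hpd, 1520.4 for Haao, 973 for Hgd, 804 for Tdo2, 411 for Kmo, 328 for Fah, 219 for Aass, 92.2 for Gldc and 19.9 for Sdsl. Hpd and Haao lay above 98.6% and Sdsl above 51.3% of the genes tested. The ranges of neighbours in this order overlapped throughout.

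**Figure D1:**
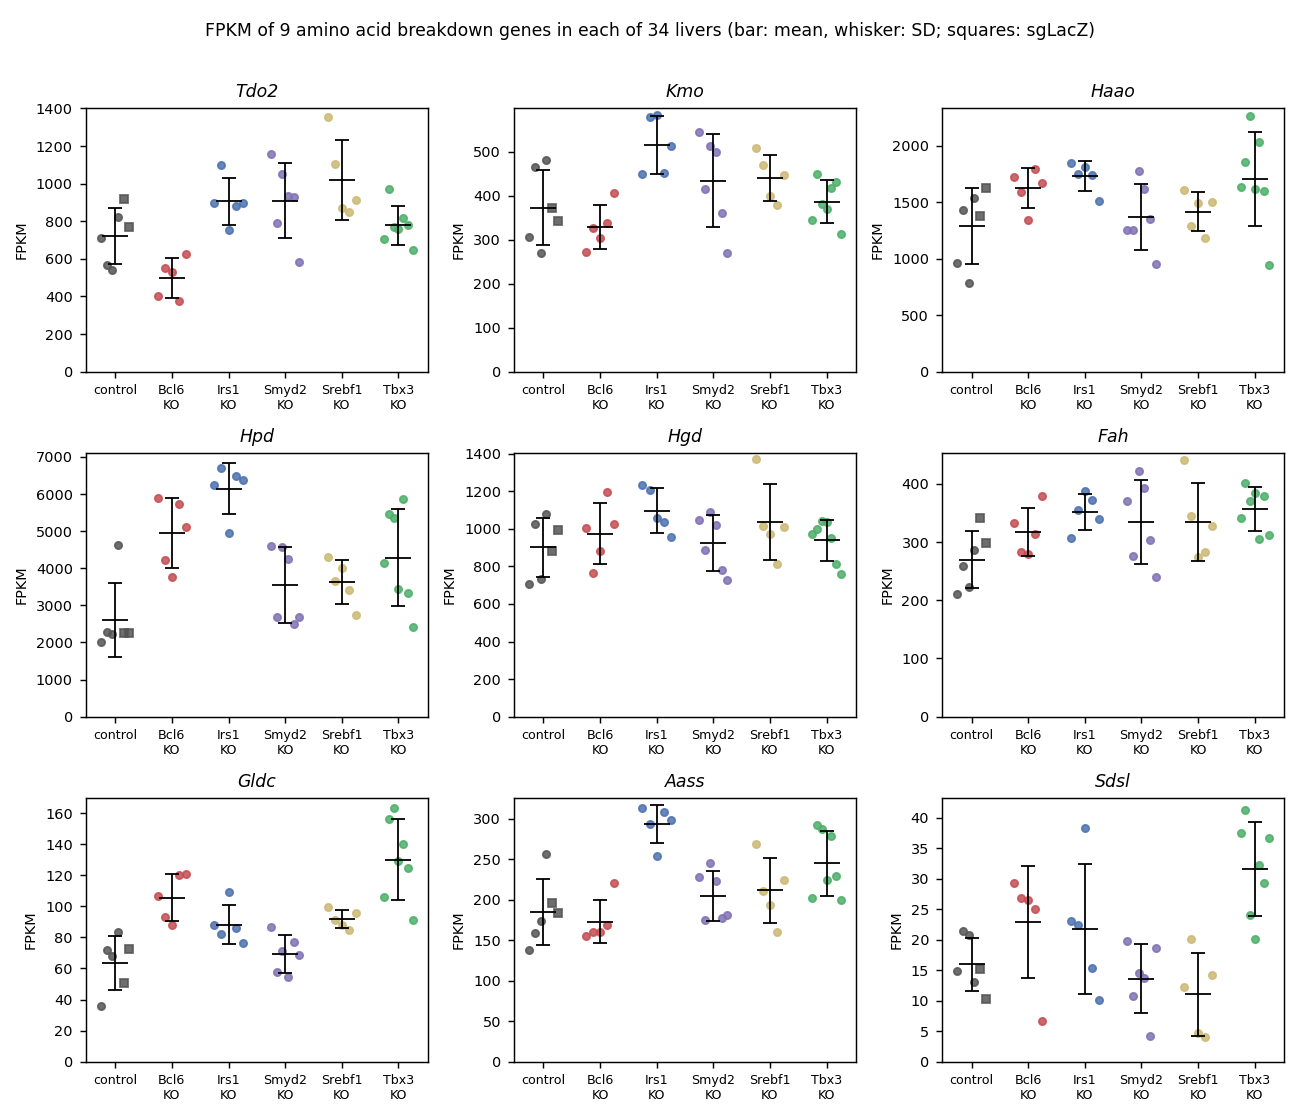
FPKM (y axes, from 0) of each of the 9 genes in each liver, by group (x axes). Points are livers, squares are sgLacZ, bars are means and whiskers SD. Tdo2 is lowest in Bcl6 KO, Hpd and Aass are highest in Irs1 KO and Gldc in Tbx3 KO.

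Tdo2, the first enzyme of the kynurenine pathway, fell in Bcl6 KO livers and differed between Bcl6 KO and each of the other 4 knockouts. In Bcl6 KO livers Tdo2 stood at 405, 553, 531, 376 and 625 FPKM. Control livers ranged from 541 to 917 with a median of 741. All 5 Bcl6 KO livers lay below the control mean, but the groups overlapped. Means were 498 ± 104 (SD, n = 5) against 721 ± 147 FPKM (SD, n = 6), a log2 change of -0.53 (SE 0.16, limma adjusted p = 0.0406). The call was lost without Bcl6 KO replicate 1 (adjusted p = 0.136) or 4 (0.159), sgGFP replicate 1 (0.0654) or 4 (0.0796), or sgLacZ replicate 1 (0.104) or 2 (0.0763), and under median scaling (0.249). Over the 34 fits that each left out 1 liver, the adjusted p ran from 0.02 to 0.159.

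In the other knockouts Tdo2 did not pass against control with the settings used throughout, and their group means were higher than the control mean. With median scaling Tdo2 passed as higher in Irs1 KO (limma adjusted p = 0.0462). Irs1 KO livers stood at 898, 1100.5, 755, 882 and 896 FPKM, and Srebf1 KO livers at 1353, 1102, 868, 850.3 and 914. Smyd2 KO livers ranged from 586 to 1157 (median 934) and Tbx3 KO livers from 647 to 973 (median 768). Log2 changes were 0.34 in Irs1 KO, 0.33 in Smyd2 KO, 0.50 in Srebf1 KO (0.39 without replicate 1) and 0.12 in Tbx3 KO. In the tests between knockouts, Bcl6 KO was lower than Irs1 KO by a log2 difference of -0.88 (limma adjusted p = 0.000436), than Smyd2 KO by -0.86 (0.000507) and than Srebf1 KO by -1.03 (6.27e-05). Against Tbx3 KO it was -0.66 (limma adjusted p = 0.00466), and without Srebf1 KO replicate 1 the Srebf1 KO difference was -0.92 (0.000442). Of the 23 livers of those 4 knockouts, only Smyd2 KO replicate 6 (586 FPKM) lay within the Bcl6 KO range of Tdo2. These 4 differences passed in each of the 34 fits that left out 1 liver and in all 9 other alternative settings.

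Kmo, the hydroxylase that follows in the pathway, rose in Irs1 KO livers. Irs1 KO livers stood at 450.2, 579, 584, 452 and 514 FPKM, while controls ranged from 270.5 to 481 with a median of 357. Means were 516 ± 65.2 (SD, n = 5) against 373 ± 85.1 FPKM (SD, n = 6), with all 5 above the control mean but overlapping ranges (log2 change 0.49, SE 0.15, limma adjusted p = 0.0358). Bcl6 KO livers stood at 272, 328, 304, 337 and 407 FPKM, entirely below those of Irs1 KO (log2 difference -0.65, limma adjusted p = 0.00629). The call against control was lost without Irs1 KO replicate 2 (adjusted p = 0.0919), 3 (0.0898) or 5 (0.0594), sgGFP replicate 1 (0.0861) or 3 (0.103), or sgLacZ replicate 2 (0.0586). Over all 34 such fits its adjusted p ran from 0.0161 to 0.103, while the difference from Bcl6 KO passed in each. Kmo in Srebf1 KO was at 380.2 to 508 FPKM, in Smyd2 KO at 269.8 to 544 (median 458) and in Tbx3 KO at 312 to 449 (median 382), and none of these passed.

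Haao, which opens the ring of 3-hydroxyanthranilate, passed in no comparison with the settings used throughout. Control livers ranged from 787 to 1628 FPKM (median 1403), Irs1 KO livers stood at 1842, 1749, 1814, 1743 and 1509, and Bcl6 KO livers at 1724, 1586, 1346, 1795 and 1670.3. Tbx3 KO livers spread from 939 to 2258 (median 1633), Smyd2 KO from 953 to 1774 (median 1299.5) and Srebf1 KO from 1186 to 1605. The groups overlapped throughout, and log2 changes were 0.38 in Bcl6 KO, 0.47 in Irs1 KO and 0.41 in Tbx3 KO (limma adjusted p 0.252, 0.0843 and 0.179). In Irs1 KO Haao passed with sgGFP livers alone as control (limma adjusted p = 0.0459) and with median scaling (0.0397). In Irs1 KO the call was also gained without Tbx3 KO replicate 7 (0.039), and in Tbx3 KO without the same liver (0.0198). Over all fits that left out 1 liver, the adjusted p of Haao ran to 0.231 and 0.417 in these knockouts.

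Hpd, the dioxygenase of 4-hydroxyphenylpyruvate, with the highest mean FPKM of the 9, rose in Bcl6, Irs1 and Tbx3 KO livers. Control livers stood at 2012 to 2280.0 FPKM, apart from sgGFP replicate 4 at 4621. Irs1 KO livers stood at 6246, 6706, 4941, 6477 and 6366 FPKM, all above every control. Means were 6147 ± 695 (SD, n = 5) against 2607 ± 992 FPKM (SD, n = 6), a 2.45-fold difference (log2 change 1.29, SE 0.22, limma adjusted p = 0.000216). Bcl6 KO livers stood at 5907, 4211, 3755, 5740.1 and 5105 FPKM, 5 of 5 above the control mean, and overlapped the controls only through sgGFP replicate 4. Their log2 change was 0.97 (SE 0.22, limma adjusted p = 0.00374).

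In Tbx3 KO livers Hpd ranged from 2406 to 5857 FPKM with a median of 4141. On the log2 scale 6 of 7 livers lay above the control mean (log2 change 0.72, SE 0.20, limma adjusted p = 0.0434). This call ran from an adjusted p of 0.00518 to 0.114 with 1 liver left out. It was lost without sgGFP replicate 1 (0.114), 2 (0.0906) or 3 (0.0832), sgLacZ replicate 1 (0.0756) or 2 (0.071), Srebf1 KO replicate 2 (0.0502), or Tbx3 KO replicate 1 (0.07), 2 (0.106), 3 (0.105) or 5 (0.114). Smyd2 KO livers ranged from 2493 to 4604 FPKM (median 3473) and Srebf1 KO livers stood at 4295, 3646, 3996, 3414 and 2745. Neither passed, with log2 changes of 0.46 and 0.52 (0.46 without Srebf1 KO replicate 1). Irs1 KO was higher than Smyd2 KO by 0.84 on the log2 scale (limma adjusted p = 0.0251), and every Irs1 KO liver lay above every Smyd2 KO liver.
That difference was lost without Irs1 KO replicate 1 (0.0611), 2 (0.0583) or 4 (0.0519), or Smyd2 KO replicate 2 (0.0631), 5 (0.0704) or 6 (0.0538).

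Hgd and Fah, the later enzymes of tyrosine breakdown, passed in no comparison with the settings used throughout. Hgd stood at 704 to 1077 FPKM in controls (median 938), with 956 to 1235 in Irs1 KO, 766 to 1198 in Bcl6 KO and 813 to 1369.9 in Srebf1 KO. Smyd2 KO livers ranged from 728 to 1088 and Tbx3 KO livers from 757 to 1041, and log2 changes of Hgd ran from 0.04 to 0.29. Fah stood at 210.0 to 341 FPKM in controls (median 273), against 308, 354, 388, 372 and 339 in Irs1 KO and 306 to 401 (median 371) in Tbx3 KO. Every Irs1 and Tbx3 KO liver lay above the control mean of Fah, with log2 changes of 0.40 (SE 0.14, limma adjusted p = 0.0544) and 0.42 (SE 0.13, 0.0678). Fah in the other 3 knockouts had log2 changes of 0.25 to 0.31 (0.20 in Srebf1 KO without replicate 1). Fah in Irs1 KO passed with a stricter filter of 5 FPKM in at least 5 libraries (limma adjusted p = 0.0466), quantile normalization (0.0408), median scaling (0.0156) and sgGFP livers alone as control (0.0198). Fah in Tbx3 KO passed with sgGFP livers alone (limma adjusted p = 0.0258). With 1 liver left out the adjusted p of Fah ran from 0.0274 to 0.137 in Irs1 KO and from 0.0321 to 0.181 in Tbx3 KO. In Irs1 KO Fah passed without sgLacZ replicate 1 (0.0274), Smyd2 KO replicate 3 (0.0468) or 6 (0.0376), or Srebf1 KO replicate 1 (0.042). In Tbx3 KO it passed without sgLacZ replicate 1 (0.0353), Smyd2 KO replicate 6 (0.0462) or Tbx3 KO replicate 7 (0.0321).

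Gldc, which decarboxylates glycine, rose in Bcl6, Irs1 and Tbx3 KO livers. Control livers stood between 35.5 and 83.3 FPKM with a median of 70.1. Tbx3 KO livers ranged from 91.1 to 163 (median 129), all above every control. Means were 130.1 ± 25.9 (SD, n = 7) against 63.6 ± 17.4 FPKM (SD, n = 6), a 2.07-fold difference (log2 change 1.05, SE 0.15, limma adjusted p = 7.47e-05). Bcl6 KO livers, at 106, 93.1, 87.8, 120.1 and 120.5 FPKM, also lay above every control (log2 change 0.76, SE 0.17, limma adjusted p = 0.00285). Both calls held in each fit that left out 1 liver, with adjusted p up to 0.00041 in Tbx3 KO and 0.0149 in Bcl6 KO.

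Irs1 KO livers held Gldc at 87.7, 82.3, 109, 85.8 and 76.4 FPKM, overlapping the controls (log2 change 0.51, SE 0.17, limma adjusted p = 0.044). The call was lost without Irs1 KO replicate 1 (0.0777), 2 (0.0642), 3 (0.124) or 4 (0.0684), sgGFP replicate 1 (0.136) or 3 (0.0536), or sgLacZ replicate 1 (0.091), with a range of 0.0189 to 0.136 over all such fits. Srebf1 KO livers stood at 99.6, 90.9, 88.2, 84.4 and 95.4 FPKM, above every control, without passing over all genes (log2 change 0.57, SE 0.17, limma adjusted p = 0.128, and 0.54 with 0.237 without replicate 1). Smyd2 KO livers ranged from 54.7 to 86.7 FPKM (median 70.0) and overlapped the controls. Gldc was higher in Tbx3 KO than in Smyd2 KO by 0.89 on the log2 scale (limma adjusted p = 0.00107), and higher in Bcl6 KO than in Smyd2 KO by 0.61 (0.0217). The second difference was lost without Bcl6 KO replicate 1 (0.0531), 4 (0.0788) or 5 (0.0606), or Smyd2 KO replicate 2 (0.0601) or 4 (0.0633).

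Aass, the entry enzyme of lysine breakdown, rose in Irs1 KO livers. They stood at 313, 294, 254, 308 and 298 FPKM, against 138 to 257 (median 179) in controls, where sgGFP replicate 4 was highest. Means were 293 ± 23.4 (SD, n = 5) against 184 ± 40.8 FPKM (SD, n = 6), with a log2 change of 0.69 (SE 0.14, limma adjusted p = 0.00177) that passed in each fit that left out 1 liver. Bcl6 KO livers stood at 156, 160.1, 160.5, 169 and 220.3 FPKM, all below every Irs1 KO liver (log2 difference -0.77, limma adjusted p = 0.000434). Tbx3 KO livers ranged from 199 to 292 (median 229.9) and exceeded Bcl6 KO by 0.49 (limma adjusted p = 0.0162, lost at 0.0511 without Bcl6 KO replicate 1). Irs1 KO also exceeded Smyd2 KO (175 to 246 FPKM) by 0.52 (limma adjusted p = 0.0297). That last difference was lost without Irs1 KO replicate 1 (0.079), 2 (0.0583), 4 (0.0625) or 5 (0.0519), or Smyd2 KO replicate 2 (0.0724), 5 (0.0748) or 6 (0.0574). Srebf1 KO livers, at 269, 211, 194, 160.1 and 224 FPKM, did not pass against control. Against control Tbx3 KO did not pass either (log2 change 0.42, limma adjusted p = 0.0732), but passed without sgGFP replicate 4 (0.0184) or Tbx3 KO replicate 7 (0.0274), with a range of 0.0184 to 0.197 over all such fits.

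Sdsl, the serine dehydratase-like gene, had the lowest mean FPKM of the 9, with an SD of 24.2 to 61.3% of the mean within groups. Hpd had the larger relative SD in controls (38.0%, against 27.5% for Sdsl) and in Tbx3 KO (30.4%, against 24.2%). Tbx3 KO livers ranged from 20.1 to 41.3 FPKM (median 32.3), all above the control mean of 15.9 ± 4.39 FPKM (SD, n = 6). The change did not pass (log2 change 0.95, SE 0.35, limma adjusted p = 0.144). Srebf1 KO livers stood at 12.3, 20.1, 4.7, 3.99 and 14.1 FPKM, and Tbx3 KO exceeded them by 1.61 on the log2 scale (limma adjusted p = 0.0182), or by 1.70 without Srebf1 KO replicate 1 (0.0244). That difference was lost without Srebf1 KO replicate 3 (0.101) or 4 (0.106), the livers with the lowest Sdsl values of the group. Bcl6 KO livers stood at 29.2, 26.8, 26.6, 25.1 and 6.69 FPKM, Irs1 KO livers at 23.1, 22.4, 38.3, 15.3 and 10.1, and Smyd2 KO livers between 4.29 and 19.9. Its neighbour Sds, which encodes serine dehydratase, did not pass in any knockout, with log2 changes from -0.07 to 0.80.

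Counted over the 9 genes, Bcl6 KO had 2 higher (Hpd and Gldc) and 1 lower (Tdo2), where 2.95% of all genes tested were higher and 3.19% lower. Irs1 KO had 4 higher (Hpd, Aass, Kmo and Gldc) and 0 lower, against 3.24% higher and 7.61% lower among all genes. Tbx3 KO had 2 higher (Gldc and Hpd) and 0 lower, against 1.17% and 1.37%. Srebf1 KO had 0, with 0.197% of all genes higher and 0.181% lower, while 2519 genes and 4 of the 9 had an unadjusted limma p under 0.05. Smyd2 KO had 0 with a background of 0%, as no gene passed there, and the counts at an unadjusted limma p under 0.05 were 1384 genes and 3 of the 9. The median log2 change of the 9 was 0.25 in Bcl6 KO, 0.47 in Irs1 KO, 0.17 in Smyd2 KO, 0.26 in Srebf1 KO and 0.42 in Tbx3 KO, beside -0.07, -0.12, -0.00, -0.05 and -0.06 over all genes tested. All 5 comparisons share the 6 control livers.

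**Figure D2:**
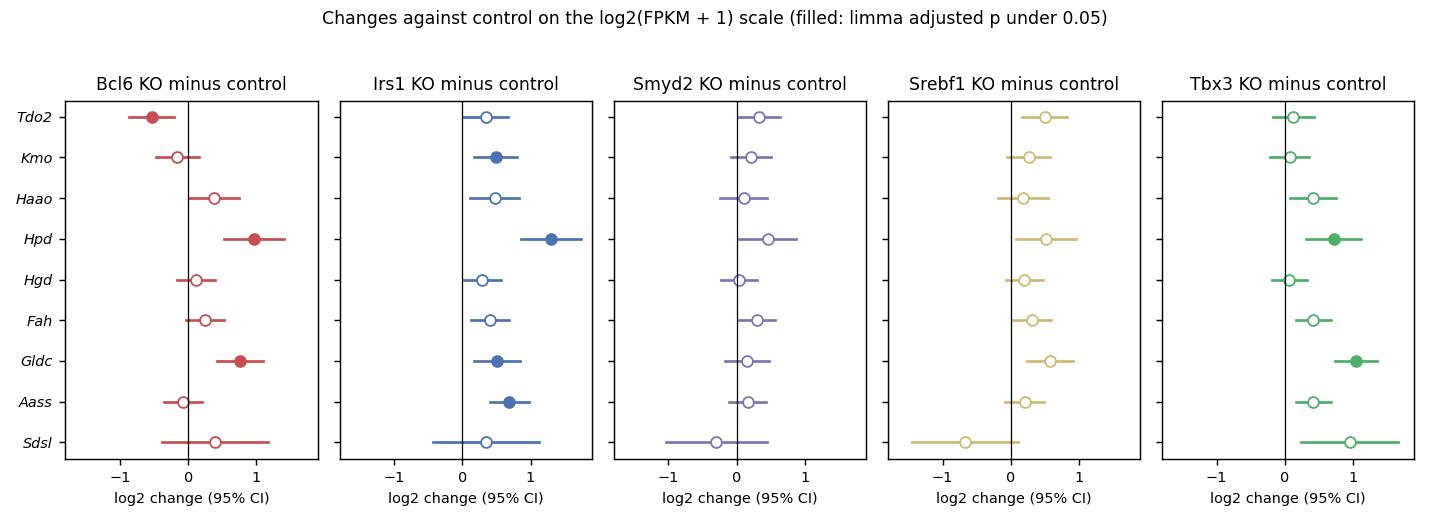
Log2 change (x axes) of each of the 9 genes (y axis) in each knockout against control, on the log2(FPKM + 1) scale, with 95% confidence intervals from limma; filled points passed the adjusted threshold of 0.05. Hpd is filled in Bcl6, Irs1 and Tbx3 KO, and Tdo2 is the only filled point below 0.

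Scaling moved the overall split of calls, and most so in Irs1 KO. There, 625 genes were higher and 1469 lower with the deposited FPKM, 1741 and 798 with each library scaled to the same median, and 884 and 908 with quantile normalization. The median change over all genes in Irs1 KO moved from -0.12 to 0.08 with median scaling, and 8 of the 9 genes then passed as higher. Relative to that median of -0.12, the deposited values of the 4 called genes were higher by 1.41 (Hpd), 0.81 (Aass), 0.63 (Gldc) and 0.61 (Kmo). In Bcl6 KO the split went from 570 higher and 615 lower to 616 and 310 with median scaling and 679 and 466 with quantile normalization. In Tbx3 KO it went from 225 and 265 to 375 and 161 with median scaling, and in Srebf1 KO from 38 and 35 to 52 and 20. Hpd and Gldc in Bcl6 KO, Hpd, Aass, Kmo and Gldc in Irs1 KO, and Gldc in Tbx3 KO passed under every scaling.

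Differences among the 5 knockouts, tested without the controls, passed for 6 of the 9 genes, against 14.5% of all genes tested. They were Tdo2 (limma F test adjusted p = 0.000219), Gldc (0.00131), Aass (0.00285), Sdsl (0.0135), Hpd (0.0303) and Kmo (0.0393). Haao (0.4), Hgd (0.539) and Fah (0.812) did not pass. Hpd was lost without Irs1 KO replicate 1 (0.062), 2 (0.0702), 4 (0.065) or 5 (0.0614), or Smyd2 KO replicate 2 (0.0531) or 5 (0.0524). Kmo was lost without Bcl6 KO replicate 1 (0.0984), 2 (0.0662), 3 (0.0831) or 4 (0.0656), Irs1 KO replicate 2 (0.0885), 3 (0.0859) or 5 (0.0651), or Tbx3 KO replicate 1 (0.0515). It was also lost with no filter (0.0568), median scaling (0.0601) and quantile normalization (0.0545).
Of the 90 differences between pairs of knockouts, 12 passed. Bcl6 KO took part in 8 of them, 4 for Tdo2, 2 for Aass and 1 each for Kmo and Gldc. The share of all genes that differed was 11.3% between Bcl6 and Irs1 KO, 5.83% for Bcl6 and Smyd2, 8.76% for Bcl6 and Srebf1, and 9.31% for Bcl6 and Tbx3. It was 4.26% for Irs1 and Smyd2, 1.6% for Irs1 and Srebf1, 2.81% for Irs1 and Tbx3, 0.0777% for Smyd2 and Srebf1, 0.902% for Smyd2 and Tbx3, and 0.943% for Srebf1 and Tbx3.

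The 9 genes were read beside 58 other tested genes of amino acid breakdown pathways and serine synthesis. A list of 10 transcription factors and coactivators was counted apart. Of the 58, 16 were higher and 2 lower in Irs1 KO, 7 and 1 in Tbx3 KO, 3 and 1 in Bcl6 KO, 1 and 0 in Srebf1 KO and 0 in Smyd2 KO. Their median log2 changes were 0.25, 0.26, 0.07, 0.22 and 0.12 in that order. In the kynurenine pathway, Irs1 KO was higher for 5 of 9 others, led by Kyat1, a kynurenine aminotransferase (log2 change 1.18, limma adjusted p = 0.000224), Acmsd, which turns the pathway away from NAD (1.34, 0.0054), and Afmid, the formamidase after Tdo2 (0.77, 0.0115). Tdo2 itself, at the head of that pathway, did not pass in Irs1 KO with the settings used throughout (0.34, limma adjusted p = 0.173), but did with median scaling (0.0462). Tbx3 KO was higher for Qprt, which makes the NAD precursor from quinolinate (0.29, limma adjusted p = 0.0251), and Kyat1 (0.69, 0.0343), and Bcl6 KO for 0 of 9.

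Tat, the aminotransferase just before Hpd, was higher in Bcl6 KO (log2 change 0.93, limma adjusted p = 0.0182, 4 of 5 livers) and in Irs1 KO (1.16, 0.00272, 5 of 5). Next to Gldc, the other tested subunits Amt, Gcsh and Dld passed in no knockout. Agxt, which transaminates glyoxylate to glycine, was higher in Irs1 KO (1.48, limma adjusted p = 0.00216) and Tbx3 KO (1.25, 0.0117). Of the serine hydroxymethyltransferases, Shmt1 was higher in Bcl6 KO (0.58, limma adjusted p = 0.028) and Shmt2 in Irs1 KO (0.44, 0.024).

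Beside Aass, the lysine genes Pipox (log2 change 0.57, limma adjusted p = 0.0105) and Aldh7a1 (0.45, 0.0255) were higher in Irs1 KO. Aldh7a1 was also higher in Srebf1 KO (0.57, limma adjusted p = 0.0442). Histidine breakdown was higher for 3 of 4 genes in Irs1 KO and for all 4 in Tbx3 KO: Hal, the histidine ammonia-lyase, by 1.62 and 1.64, and Ftcd, its last enzyme, by 0.44 and 0.90 (limma adjusted p for Ftcd in Tbx3 KO 7.88e-07). Prodh2, a hydroxyproline dehydrogenase, was higher in Bcl6 KO (0.58, limma adjusted p = 0.0254) and Irs1 KO (0.55, 0.0245). Of the branched-chain list, lower values were seen for Bckdhb in Irs1 KO (-0.37, limma adjusted p = 0.0111) and Tbx3 KO (-0.46, 0.00234), while Acadsb was higher in Irs1 KO (0.57, limma adjusted p = 0.00766). Serine synthesis (3 genes) passed nowhere, but Phgdh (group means 0.05 to 0.82 FPKM) and Psat1 (0.48 to 2.79) were near the floor. Hnf4a, a hepatocyte transcription factor, was higher in Bcl6 KO (0.42, limma adjusted p = 0.000369), Irs1 KO (0.50, 9.64e-05) and Tbx3 KO (0.36, 0.00341), and Klf15, a regulator of amino acid breakdown, in Irs1 KO (0.81, 0.00272).

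**Figure D3:**
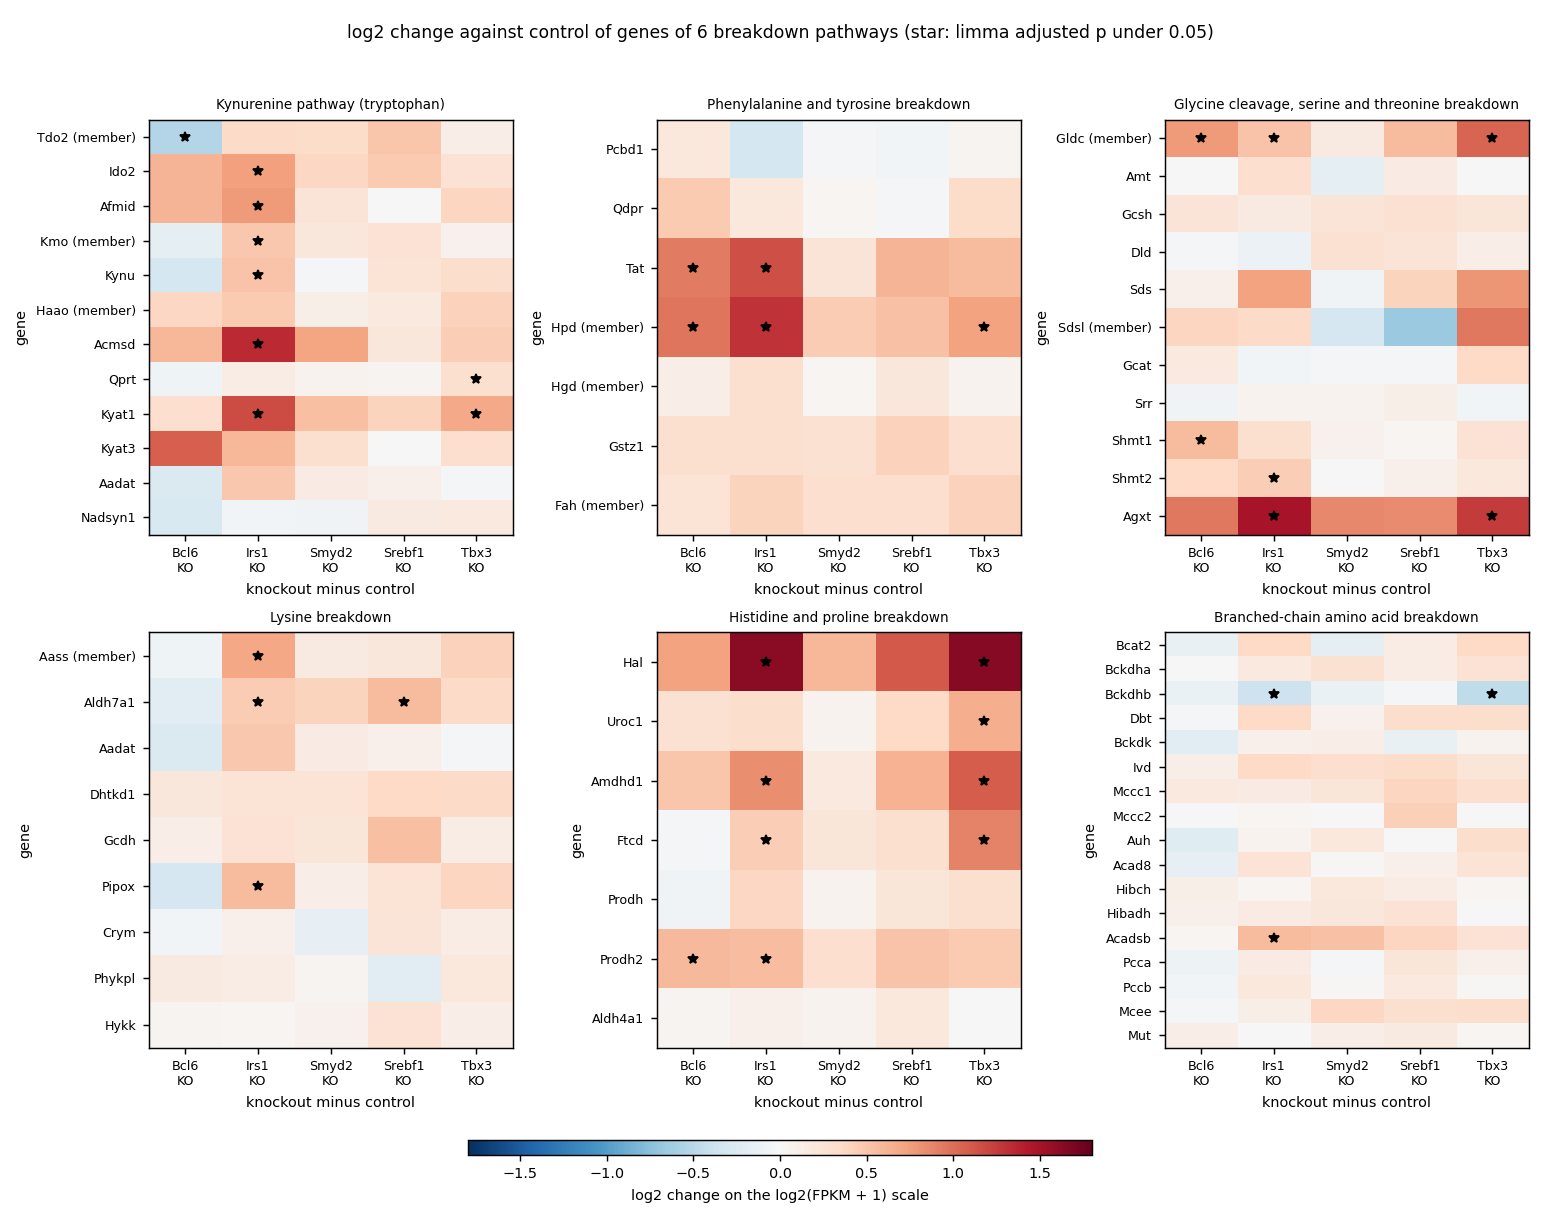
Log2 change against control (colour, on the log2(FPKM + 1) scale) of tested genes of 6 breakdown pathways (rows) in the 5 knockouts (columns). Stars mark limma adjusted p under 0.05; of the 9 genes, Hpd and Gldc carry 3 stars each and Tdo2, Kmo and Aass 1 each.

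Marker lists of liver cell types moved with several of these values. The summed FPKM of 12 stellate cell and myofibroblast markers was 969.9 to 2039 in controls, 732 to 824 in Irs1 KO and 567 to 1814 in Tbx3 KO, with 6, 3 and 1 of the 12 lower in Irs1, Tbx3 and Bcl6 KO and 0 in the other knockouts. Timp1 was at 0 in all Irs1 KO livers. Of 11 macrophage markers 2 were lower in Irs1 KO (sums 601 to 1047, against 788 to 1285 in controls). Of 9 endothelial markers 4 were higher in Bcl6 KO and 2 lower in Irs1 KO, and 1 of 5 tested cholangiocyte markers was lower in each of those 2 knockouts. Hepatocyte markers were higher for 7 of 10 in Bcl6 KO (sums 174470 to 242880, against 86911 to 111140 in controls) and for 5 of 10 in Irs1 KO (111640 to 142940), with 2 higher and 1 lower in Tbx3 KO. Alb was the largest part of that sum, with means of 131470 FPKM in Bcl6 KO and 45811 in controls. Means of Ttr were 10114 and 11612 FPKM, so the markers did not move alike. In whole liver, fewer cells of a type and less RNA per cell cannot be told apart, and the part of cell makeup in the changes above was not tested.

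Across the 34 livers the 9 genes differed widely in how they tracked the stellate cell and myofibroblast sum. Haao tracked it most closely, with Pearson r = -0.91 and Spearman rho = -0.84 on the log2 scale (r = -0.93 after removing group means, -0.88 without the 2 livers farthest from the median sum). Hgd (r = -0.73), Hpd (-0.73), Aass (-0.68), Fah (-0.67), Gldc (-0.66) and Kmo (-0.55) followed, and Tdo2 (-0.32) and Sdsl (-0.18) tracked it least. Dcn was the largest part of this sum, with group means of 480 to 790 FPKM, against 163.1 or less for each other marker. The sum is therefore weighted to Dcn. The sum of 6 cholangiocyte markers tracked Hpd (r = -0.80), Hgd (-0.81) and Kmo (-0.68) more closely than the stellate sum did, and Haao (-0.81) less closely. Most of the cholangiocyte sum was Spp1, with group means of 300 to 1377 FPKM, against 28.0 or less for each other marker. Tdo2 tracked the sum of 5 red cell markers at r = 0.73 (0.36 after removing group means) and that of the macrophage markers at -0.55, and Kmo tracked the red cell sum at 0.73. Most of the red cell sum was Alas2, with group means of 231 to 530.5 FPKM, against 2.81 to 25.8 for the globin genes. It is therefore mainly a reading of Alas2. The sum of 8 T and B cell markers tracked Haao (r = -0.74), Hpd (-0.68) and Kmo (-0.63) as well. Most of that sum was Ptprc, with group means of 176 to 384 FPKM, against 19.0 or less for each other marker. With the hepatocyte sum, r ran from -0.51 (Tdo2) to 0.46 (Hpd). These are descriptions over livers that share a library with the markers. Stellate cell and myofibroblast sums were above 1500 FPKM in 4 livers: sgGFP replicates 1 and 3, Smyd2 KO replicate 6 and Tbx3 KO replicate 7. They held the 4 Haao values below 1000 FPKM. Tbx3 KO replicate 7 was the lowest of its group for 7 of the 9 genes, Smyd2 KO replicate 6 for 5, sgGFP replicate 1 for 5 and sgGFP replicate 3 for 3.

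**Figure D4:**
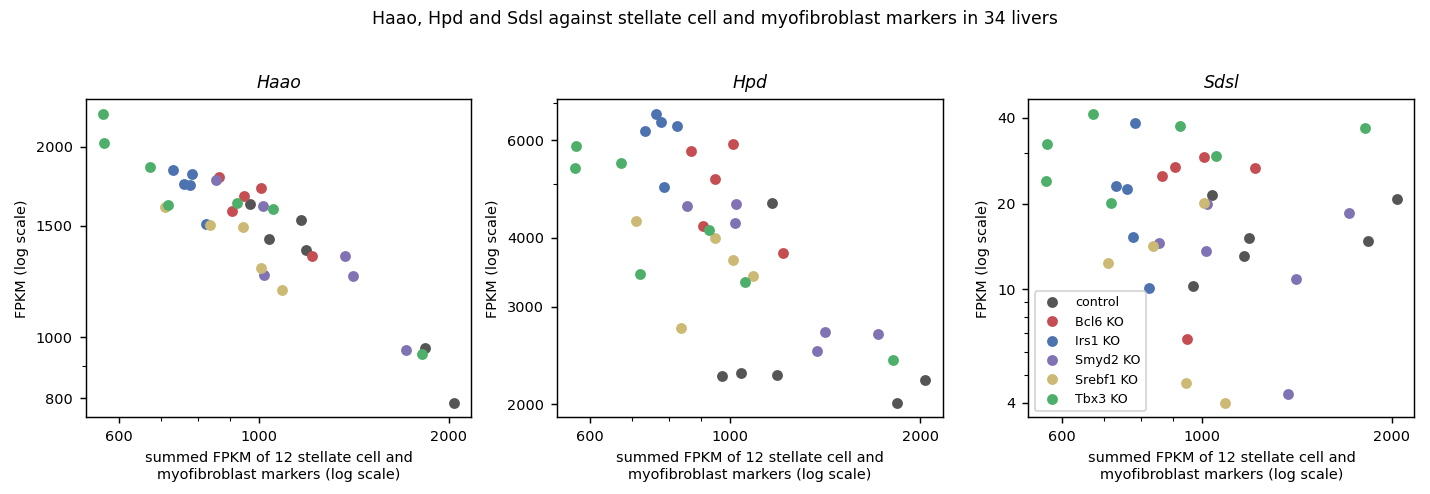
FPKM of Haao, Hpd and Sdsl (y axes, log scale) against the summed FPKM of 12 stellate cell and myofibroblast markers (x axes, log scale) in 34 livers, coloured by group. Haao is lower where the sum is higher in all groups (r = -0.91), Hpd more loosely so (-0.73) and Sdsl hardly (-0.18). Dcn is the largest part of the sum.

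Without these 4 livers, a choice made after the values were seen, the called genes in Bcl6 KO were the same 3: Hpd (log2 change 0.85, limma adjusted p = 0.0156), Gldc (0.61, 0.0101) and Tdo2 (-0.63, 0.0114). Irs1 KO had Hpd (1.18, 0.00118) and Aass (0.58, 0.0139), but no longer Kmo (0.32, 0.136) or Gldc (0.35, 0.148). Tbx3 KO had Gldc (0.97, 0.000144) and Hpd (0.73, 0.0488). All 12 differences between knockouts passed as well, and the F test over the knockouts also passed for Haao (limma adjusted p = 0.0306).

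Between themselves, the 9 genes mostly varied from liver to liver in the same direction. Over the 34 livers, 33 of 36 pairs had a Pearson r above 0, from -0.29 (Tdo2 with Sdsl) to 0.72 (Tdo2 with Kmo), with a median of 0.49. After removing group means the range was -0.12 to 0.74 (Haao with Hgd), with a median of 0.53. Gldc and Tdo2, at r = -0.09 over all livers, stood at 0.10 within groups. Srebf1 KO replicate 1, the library with Srebf1 mRNA in the control range, was highest of its group for 8 of the 9 genes, and Srebf1 KO replicate 4 lowest for 7. Without replicate 1, log2 changes in Srebf1 KO against control were 0.21 for Kmo (0.26 with it), 0.13 for Haao (0.18) and 0.09 for Hgd (0.20). They were 0.20 for Fah (0.31) and 0.11 for Aass (0.20), and 0 of the 9 genes passed.

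**Figure D5:**
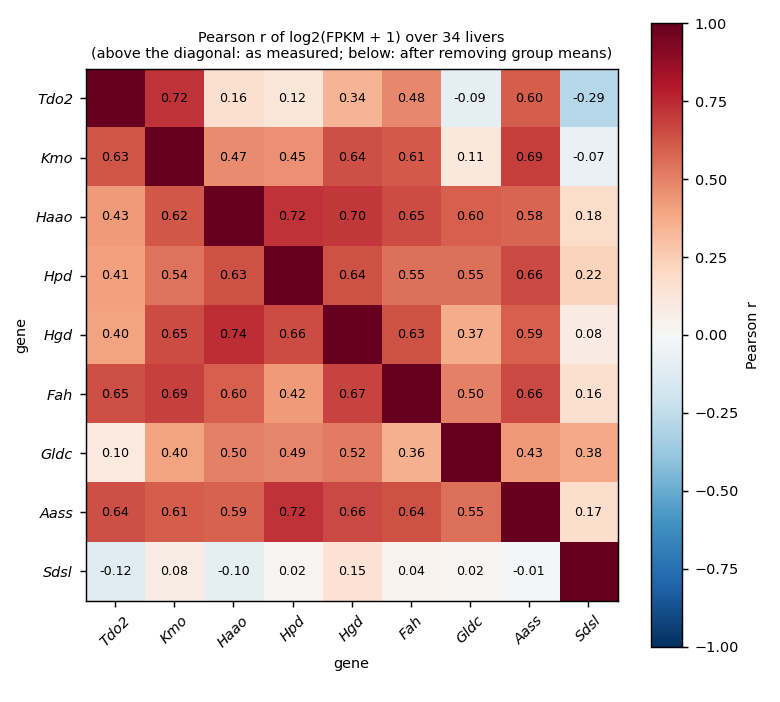
Pearson r (colour and numbers) of log2(FPKM + 1) between each pair of the 9 genes over 34 livers, as measured above the diagonal and after removing group means below it. Tdo2 with Kmo and Haao with Hpd (0.72 each) are highest above the diagonal, Haao with Hgd (0.74) below it, and the Sdsl row and column are palest.

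By the highest Pearson r over the 34 livers among all genes tested, Il1rap (0.91) and Phyh (0.90) were most like Tdo2, and Plg (0.90) and Scnn1a (0.89) most like Hpd. Acsm1 had an r of 0.78 with Hgd. Haao was nearest to Dpyd and Qdpr (0.84 each) and Fah to Otc and Rsc1a1 (0.86 each), while Pecr had an r of 0.84 with Aass. Gldc was nearest to Psen2 (0.81) and Uroc1 (0.80), the latter a histidine enzyme, and Pydc3 had an r of 0.62 with Sdsl. Kmo was nearest to Mup1 (0.88) and Mup12 (0.87), members of a near-identical family whose reads may be shared. These are descriptions over 34 livers that share groups and libraries.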

How the data were processed

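Total RNA from 34 livers was sequenced, 1 library per liver. The authors deposited FPKM per gene symbol. The deposited columns sum to 2790000 to 3090000 FPKM. Per the labels' protocols, RNA came from TRIzol and RNeasy and libraries from a stranded total RNA kit (SMARTer). Per the submitters' processing notes, featureCounts 1.6.4 was used, and the builds mm10 and GRCh38 are named without a role. Aligner, annotation and strand setting are not given in the sources used. Depth (2110000 to 3130000 reads per library, median 2610000) was estimated from low values: 34.4 to 39.3% of them lay at whole reads within 0.02 reads, so no count test was run. It bounds precision for low genes such as Sdsl.

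Genes reaching 1 FPKM in 5 or more libraries (19295) were tested with limma 3.58.1 (R 4.3.3) on log2(FPKM + 1), in 1 fit of 34 livers with 6 levels and an intensity trend. P-values are two-sided and Benjamini-Hochberg adjusted over all tested genes, and 0.05 was the threshold. The log2(FPKM + 1) scale understates changes of low genes. Contrasts were each knockout against control, an F test among knockouts, 10 pairs of knockouts, and sgGFP against sgLacZ. The script was tested on simulated data. The 9 genes and the gene lists were chosen with earlier results of these data known. Named beside them are, by rule, up to 3 list genes per comparison with the smallest adjusted p, and the 2 genes most alike in Pearson r; Sds, Amt, Gcsh and Dld were added for their place beside the 9. Some genes that this rule picks are not reported here, though counts include them. The labels name no batch, and nothing says beyond their numbering that livers are separate animals, so p-values measure the spread between these samples. Alternatives were the pseudocount, the filter, the scaling, the control, the livers in the fit, a replicate block, weights and each liver left out.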

Additional observations from a re-analysis of the deposited data

Results flagged for a closer look

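Among 54 sets of values, 1 for each of the 9 genes in each of 6 groups (Tbx3 KO with 7 livers, the others with 5 or 6), 4 held a liver far from the others of its group by Dixon's criterion, which flags about 5% of such sets by chance. For Hpd, sgGFP replicate 4 stood at 4621 FPKM with the next highest control at 2280.0, a gap of 0.897 of the control range. Hpd in Irs1 KO replicate 3 was 4941 FPKM, below the next at 6246 (gap 0.739 of the range), and was still above every control. For Aass, Bcl6 KO replicate 5 stood at 220.27 FPKM, above the next at 169 (0.798 of the range). The same liver was lowest for Sdsl, at 6.69 FPKM against the next at 25.1 (0.816 of the range), and highest of its group for Tdo2, Kmo, Fah, Gldc and Aass.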

How the results depend on the processing

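Of the 9 genes, Hpd and Gldc in Bcl6 KO, Hpd and Aass in Irs1 KO, and Gldc in Tbx3 KO kept their direction and their call under each alternative run, each liver left out included. Tdo2 in Bcl6 KO also lost its call with no filter (limma adjusted p = 0.0569), quantile normalization (0.0592), sgGFP alone as control (0.194) and the 2 groups fitted alone (0.0928). Kmo and Gldc in Irs1 KO lost theirs with no filter (0.0513, 0.0594), sgGFP alone (0.0811, 0.0819) and the 2 groups alone (0.0548, 0.12). With sgGFP alone, Fah (0.0198) and Haao (0.0459) passed in Irs1 KO and Fah (0.0258) in Tbx3 KO. Hpd in Tbx3 KO lost its call with no filter (0.0661), median scaling (0.0541), sgGFP alone (0.114) and the 2 groups alone (0.176). Of the pair differences, Aass of Bcl6 and Tbx3 KO (0.0572) and Gldc of Bcl6 and Smyd2 KO (0.0569) were lost under median scaling, and Sdsl of Srebf1 and Tbx3 KO with array weights (0.0604). The causes were not tested.

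Members called in Irs1 KO (4) became 2 with no filter, 8 with median scaling, 2 with the 2 groups alone and 2 without the 4 livers high in stellate markers; leaving out 1 liver gave 2 to 5. In Tbx3 KO (2) they became 1 with no filter, 1 with median scaling and 1 with the 2 groups alone; leaving out 1 liver gave 1 to 5. Over all genes, Irs1 KO (2094) had 1784 called of 26656 tested with no filter and 2539 of 19295 with median scaling. It had 1792 of 16818 with the 2 groups alone, 1586 of 18939 without the 4 livers and 1424 to 2431 with 1 liver out. Tbx3 KO (490) had 416 of 26656 with no filter, 536 of 19295 with median scaling and 118 of 17364 with the 2 groups alone. With 1 liver out it had 258 to 1471 (1471 without Tbx3 KO replicate 7). Srebf1 KO (73) had 152 with sgGFP alone, 29 without the 4 livers, and 14 to 121 with 1 liver out. Smyd2 KO (0) had 12 with sgGFP alone and 0 to 4 with 1 liver out, and Bcl6 KO (1185) had 743 to 1301.

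The replicate numbers did not pair the livers: residual correlations had a median of -0.0024 for same-numbered livers of different groups (81 pairs) and 0.0028 for others (399), and 7 of 34 livers correlated best with their own number. With the replicate block 1931 genes were called in Tbx3 KO and 133 in Srebf1 KO, and 5 of the 9 genes in Tbx3 KO. Only Tbx3 KO has a replicate 7, so the block fits that liver exactly and the liver adds nothing to these contrasts. Leaving that liver out, without a block, gave 1471 genes and 5 of the 9 in Tbx3 KO, and 121 genes in Srebf1 KO. Under that replicate block, Tdo2 in Bcl6 KO (0.0511), Gldc in Irs1 KO (0.0608), Kmo among knockouts (0.0514) and Aass between Irs1 and Smyd2 KO (0.0622) were lost, while Haao passed in Irs1 KO (0.0468) and Tbx3 KO (0.0126), and Fah (0.026) and Aass (0.0404) in Tbx3 KO.

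Directions reversed only for changes that had not passed. Aass in Bcl6 KO became 0.013 with median scaling and 0.025 without sgGFP replicate 4 (-0.17 to 0.025 over all fits with 1 liver out). Haao in Smyd2 KO became -0.027 without sgGFP replicate 3 (-0.027 to 0.20). Hgd in Smyd2 KO became -0.029 without sgGFP replicate 1, -0.018 without sgGFP replicate 3, -0.0012 without Smyd2 KO replicate 1 and -0.012 without Smyd2 KO replicate 3 (-0.029 to 0.10). In Tbx3 KO, Hgd became -0.00095 without sgGFP replicate 1 (to 0.12 over such fits) and Kmo -0.013 without sgGFP replicate 3 (to 0.15). Without the 4 livers high in stellate markers, Hgd became -0.042 in Bcl6 KO, -0.051 in Smyd2 KO and -0.039 in Tbx3 KO, Haao -0.055 in Smyd2 KO and -0.081 in Srebf1 KO, and Kmo -0.048 in Tbx3 KO.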
